A study of Mus musculus with 4 samples.

Results

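Antigen-presenting cells show peptides to CD4 T cells on MHC class II molecules, and 10 mouse genes of that pathway were followed here in sorted regulatory T cells (Tregs). They are H2-Aa, H2-Ab1, H2-Eb1, H2-Eb2, H2-DMa, H2-DMb1, H2-Oa, H2-Ob, Cd74 and Ciita. Every probe whose gene name in the scanner files is one of these was taken, which gave 14 of 55681 probes and 10 of 22318 named genes. The RNA came from male C57BL/6 mice, wild-type (WT) or deltaDC, and was measured on 4 one-colour arrays, 1 for the spleen and 1 for the thymus of each genotype. What deltaDC stands for is not written out in the labels, nor are the transgene or the age. The name is used elsewhere for mice that lack dendritic cells. Cells of 3 mice per genotype were pooled, so each array is a pool and no group has a replicate array. Splenic CD4 T cells were taken by negative selection and thymocytes were enriched with an anti-CD8 antibody and beads. Both were then sorted as live CD4+ CD25+ cells, and the labels name no gate on Foxp3 or against antigen-presenting cells.

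A class II molecule is a pair of an alpha and a beta chain. The H2-A molecule is made from H2-Aa and H2-Ab1. The H2-E molecule needs the beta chain H2-Eb1 and an alpha chain, H2-Ea, whose gene is defective in C57BL/6 mice. Cd74, the invariant chain, holds the groove closed on the way to the endosome, where H2-DM (H2-DMa with H2-DMb1) swaps its remnant for a peptide and H2-DO (H2-Oa with H2-Ob) restrains H2-DM. Ciita is the coactivator that switches the set on, through factors bound at the X and Y boxes of the promoters. B cells, dendritic cells, macrophages and thymic epithelium make these genes at high level, and mouse T cells are known for making little.

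The promoters are shown because most members with a promoter sequence at hand held these boxes, while their signals differed in pattern. RefSeq windows on GRCm38.p6, from 250 bases before to 50 after the annotated start, were at hand for 7 of the 10 members. The search, on both strands, was for the letters GNAAC (the core of the X box) followed on the same strand by TGATTGG (the Y box), with 20 to 40 bases from start to start. The letters were chosen after the sequences had been seen. The pair was present in 6 of the 7 members with a window, and in 0.569% of all 32851 windows of that length. In the lines that follow, read 5′ to 3′ on the gene's strand, both motifs are in capitals.
H2-Oa: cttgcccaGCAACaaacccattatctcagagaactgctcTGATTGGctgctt
H2-DMb1: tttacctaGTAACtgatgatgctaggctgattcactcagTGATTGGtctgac
H2-Ob: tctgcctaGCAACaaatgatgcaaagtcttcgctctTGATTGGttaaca
H2-Aa: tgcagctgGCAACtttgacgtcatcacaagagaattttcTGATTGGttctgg
H2-Eb1: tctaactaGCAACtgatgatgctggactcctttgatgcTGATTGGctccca
H2-Eb2: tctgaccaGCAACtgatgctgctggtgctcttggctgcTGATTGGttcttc
The H2-Aa stretch lies on the minus strand at chr17:34287861-34287912, and that of H2-Eb1 on the plus strand at chr17:34305768-34305818. The stretches of H2-Oa (chr17:34092295-34092346), H2-DMb1 (chr17:34153089-34153140), H2-Ob (chr17:34238810-34238858) and H2-Eb2 (chr17:34325535-34325585) are also on the plus strand. Between the motifs lie 23 bases in H2-Ob, 25 in H2-Eb1 and H2-Eb2, and 26 in H2-Aa, H2-DMb1 and H2-Oa. Neither window of H2-DMa held the Y box letters, which 7.82% of all windows hold. A match to these letters is a description of the sequence and not of binding.

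The probes of the 8 H2 genes lie on chromosome 17 between positions 34232033 and 34476993 of mm9, the build of the array design. In that order they are H2-Oa, H2-DMa, H2-DMb1, H2-Ob, H2-Ab1, H2-Aa, H2-Eb1 and H2-Eb2. Ciita is on chromosome 16 and Cd74 on chromosome 18. Between 48.7% and 50.7% of spots on an array were well above background, and the arrays' 75th percentiles of signal were between 340.2 and 417.5. Signals are given after scaling every array to a common 75th percentile of 387.7. The only error that can be had is the spread between repeated spots of one probe on an array, an SD (log2) of 0.35 for signals below 50 and 0.06 from 1000 to 10000. It holds no variation between animals, sorts or labellings, and the number of arrays limits every value. The sorted cells carried T cell RNA on all 4 arrays: 7 of 7 T cell and Treg genes (Cd3e, Cd3g, Cd4, Foxp3, Il2ra, Ctla4, Ikzf2) were well above background on each, and 0 of them differed by 2-fold in any comparison.

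The chains of the H2-A molecule were dimmest in WT splenic Tregs and close to each other on the other 3 arrays. H2-Aa had a scaled signal of 163 (WT) and 1312 (deltaDC) in the spleen, and 980 (WT) and 1011 (deltaDC) in the thymus. The WT spleen value stands apart, and the largest gap among the others is 0.42 log2 units, between deltaDC spleen and WT thymus. Its partner H2-Ab1 had 1265 for WT spleen, 6675 for deltaDC spleen, 7453 for WT thymus and 8392 for deltaDC thymus. A further H2-Ab1 probe, whose target overlaps that of the first, read 1077, 5365, 5546 and 6609 in the same order. Both probes place WT spleen lowest and deltaDC thymus highest. In RNA from many cells, fewer cells of a type and less RNA per cell cannot be told apart.

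The H2-E beta chain and the invariant chain had the same order of WT spleen against the rest. H2-Eb1 had a signal of 1236 and 6973 in the WT and deltaDC spleen and 6190 and 7066 in the WT and deltaDC thymus. The deltaDC spleen and deltaDC thymus values of H2-Eb1 differed by 0.02 log2 units, within the spot error of 0.08. Cd74 had 1504 (WT) and 6711 (deltaDC) in the spleen, and 4944 (WT) and 6000 (deltaDC) in the thymus. For Cd74 deltaDC spleen was the brightest array, 0.16 log2 units above deltaDC thymus, where the spot error is 0.08. H2-Ea, the defective alpha chain gene, was not well above background on any of the 4 arrays, with signals from 3.71 to 4.64.

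H2-Eb2, a lesser known beta chain gene next to H2-Eb1, was dim throughout. Its signal was 5.14 on WT spleen, not well above background, then 51.4 in the deltaDC spleen, 67.8 in the WT thymus and 136 in the deltaDC thymus. It is the member with the clearest step between the thymus arrays, where the others lay within 1.3-fold of each other or, for Ciita, were not well above background.

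The peptide exchange genes parted from each other although their products work as a pair. H2-DMa read 1078 for WT spleen, 1178 for deltaDC spleen, 1196 for WT thymus and 1370 for deltaDC thymus, a span of 0.35 log2 units over the 4 arrays. H2-DMb1 read 143 and 341 in the WT and deltaDC spleen and 609 and 636 in the WT and deltaDC thymus. So the alpha chain gene was nearly level while the beta chain gene was dimmer in WT spleen than in deltaDC spleen, and in both than in the thymus, with the thymus arrays 0.06 log2 units apart at a spot error of 0.11. H2-DMb2, a near copy beside H2-DMb1 with a probe of its own, had signals of 12.4 (not well above background), 32.5, 46.9 and 74.4 in the same array order. Cross-hybridisation between such copies was not tested, and another H2-DMb1 probe, for an Ensembl transcript, was not well above background on any array.

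The H2-DO genes followed neither pattern. H2-Oa had 1981 (WT) and 1944 (deltaDC) in the spleen, and 3936 (WT) and 4524 (deltaDC) in the thymus. It was brighter on both thymus arrays than on both spleen arrays, and the spleen arrays differed by 0.03 log2 units. H2-Ob had 2521 for WT spleen, 1493 for deltaDC spleen, 1980 for WT thymus and 2424 for deltaDC thymus. WT spleen, the dimmest array for the H2-A chains, was here the brightest, by 0.06 log2 units over deltaDC thymus, which is within the spot error of 0.08. A probe in another part of H2-Ob gave 3072, 1357, 1741 and 2205 in the same order, again with WT spleen highest and deltaDC spleen lowest. The remaining H2-Ob probe, for a cDNA clone, was not well above background on any array.

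Ciita, the coactivator of the set, was not well above background on any of the 4 arrays. Its 1 probe read 17.8 and 9.33 in the WT and deltaDC spleen and 5.50 and 12.7 in the WT and deltaDC thymus. Values at this level have no order. Of all named genes 34.9% were likewise not well above background on any array, so this gives no level for Ciita and does not show that it is absent.

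**Figure D1:**
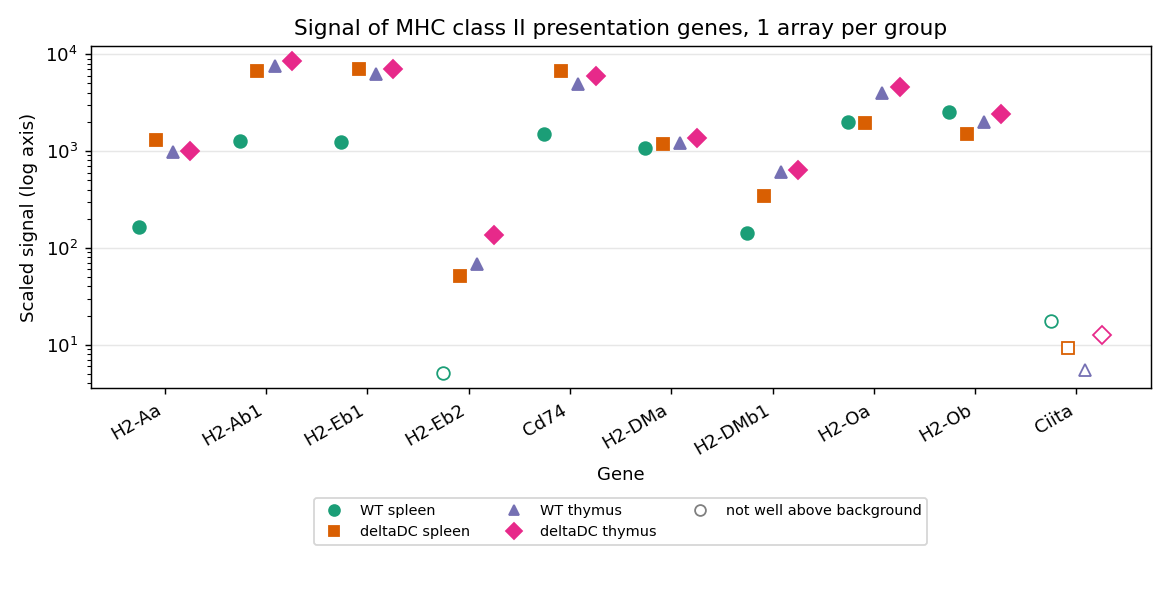
Scaled signal (log axis) of the 10 genes, with 1 point per array and colour and shape for the group; open points are not well above background. WT spleen is the lowest point for H2-Aa (163), H2-Ab1 (1265), H2-Eb1 (1236) and Cd74 (1504), while H2-Ob is highest there (2521). Heights are not comparable between genes, since each probe has its own brightness.

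The first comparison asked how deltaDC and WT Tregs of the spleen differ in these genes. H2-Aa, H2-Eb1, H2-Ab1, Cd74 and H2-DMb1 were 2-fold or more higher in the deltaDC spleen, H2-Eb2 was so by a bound, and H2-DMa, H2-Oa and H2-Ob lay within 2-fold. H2-Aa was 8.05-fold higher, a log2 difference of 3.01 with a spot error of 0.14. H2-Eb1 was 5.64-fold, H2-Ab1 5.28-fold, Cd74 4.46-fold and H2-DMb1 2.39-fold higher. For H2-Eb2, dim on WT spleen, the bound is at least 2.63-fold, its bright signal against the lowest signal well above background on that array. H2-DMa differed by 0.13, H2-Oa by -0.03 and H2-Ob by -0.76, or by -1.18 at its other bright probe, which is past 2-fold.

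Of the 8 members measured on both spleen arrays 5 were thus at least 2-fold higher and 0 lower, against 6.41% of 12531 genes higher and 2.01% lower (8.42% in either direction). Among genes well above background on 1 of the spleen arrays, 22.1% of 1208 were at least 2-fold higher in deltaDC by their bound, as H2-Eb2 was. With normexp, a model-based background correction, H2-DMb1 was under 2-fold at 0.89, as it was at 0.59 with the median over its bright and its dim probe. A single array on each side gives no test of these differences.

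In the thymus the genotypes lay close together. Of 9 members measured on both thymus arrays, 1, H2-Eb2, was 2-fold or more higher in deltaDC and 0 were lower, where 0.928% and 0.675% of 13040 genes were (1.6% in either direction), and 20.1% of 829 genes dim on 1 of these arrays were higher by a bound. H2-Eb2 sits at the 2-fold line, with a spot error of 0.19 log2 units, and with normexp its log2 difference was 0.63. The other 8 differed by 0.04 (H2-Aa) to 0.29 (H2-Ob), all slightly higher on the deltaDC array. All genes measured had a median of 0.05. With quantile scaling that median was 0.01, and these 8 differences were from 0.02 (H2-Aa) to 0.25 (H2-Ob).

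**Figure D2:**
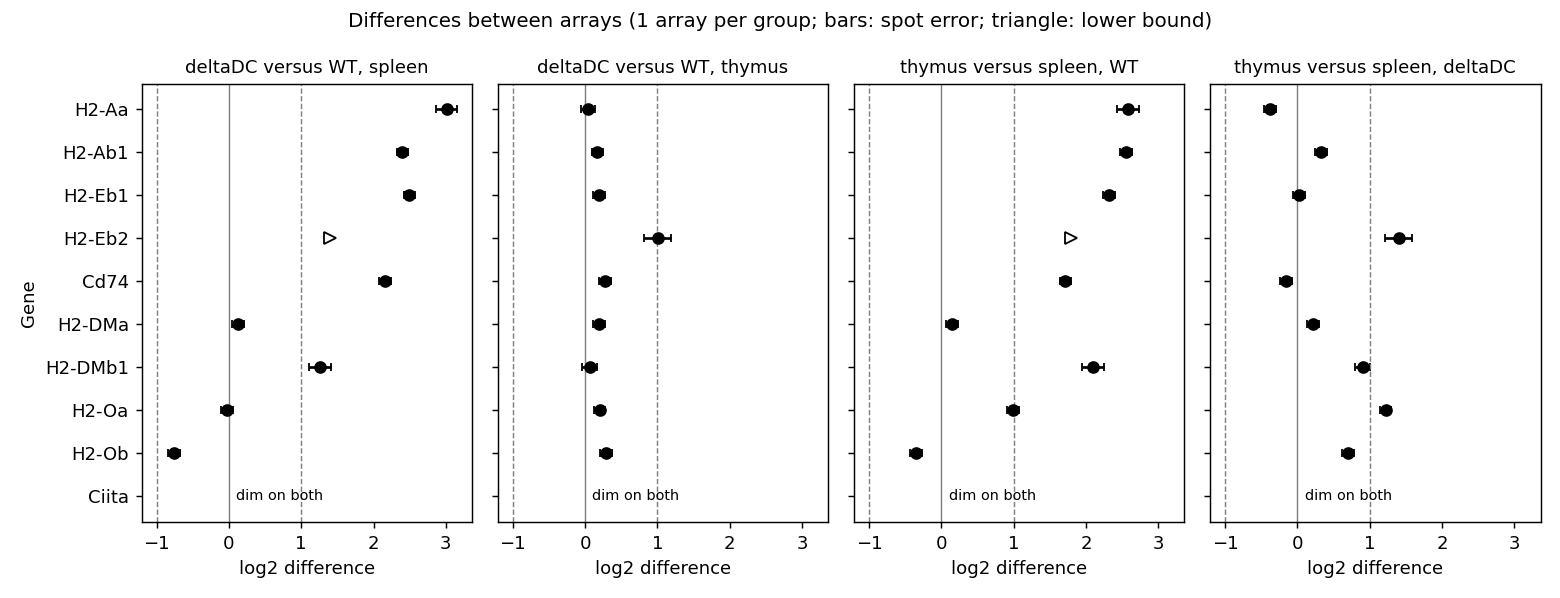
Log2 differences of the 10 genes in the 4 comparisons, with bars for the spot error of the difference, dashed lines at 2-fold, and open triangles for lower bounds where 1 array was dim. In the spleen the genotype difference reaches 3.01 (H2-Aa), while in the thymus all measured genes but H2-Eb2 lie between 0.04 and 0.29.

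Thymus against spleen in WT mice shared the dim WT spleen array with the first comparison, and so is not independent of it. H2-Aa was 6.01-fold, H2-Ab1 5.89-fold, H2-Eb1 5.01-fold, H2-DMb1 4.27-fold and Cd74 3.29-fold higher on the WT thymus array. H2-Eb2 was at least 3.48-fold higher by its bound. With the median over its probes H2-DMb1 was under 2-fold here too, at 0.92. H2-Oa, at 1.99-fold with a log2 difference of 0.99, lay just under the line, and passed it with quantile scaling (1.09) and in the authors' matrix (1.12). Of the 8 members measured, 5 were at least 2-fold higher and 0 lower, against 6.51% and 3.03% of 12480 genes (9.54% in either direction). Bounds of at least 2-fold higher were found for 31.3% of 1273 genes above background on 1 of these arrays.

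In deltaDC mice 2 members reached 2-fold between the organs. H2-Eb2 was 2.65-fold and H2-Oa 2.33-fold higher on the deltaDC thymus array, with log2 differences of 1.40 and 1.22. H2-DMb1 had 0.90 and H2-Ob 0.70, both short of 2-fold. The H2-A chains, H2-Eb1 and Cd74 lay between -0.38 and 0.33. Of 9 members measured, 2 were at least 2-fold higher and 0 lower, where 5.38% and 6.15% of 12806 genes were (11.5% in either direction), and 30.4% of 1334 genes dim on 1 of these arrays were higher by a bound. H2-Oa was thus brighter in the thymus in both genotypes.

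Over the 4 arrays, WT spleen was the lowest for 6 of the 8 members well above background on all of them, and at least 2-fold below every other array for 5, namely H2-Aa, H2-Ab1, H2-Eb1, Cd74 and H2-DMb1. Of 12286 genes above background on all 4 arrays, 24.7% had WT spleen lowest, 31.7% had it highest, as H2-Ob did, and 2.35% had it at least 2-fold below every other. The difference of the genotype differences, thymus minus spleen, was -2.96 log2 units for H2-Aa, -2.30 for H2-Eb1, -2.23 for H2-Ab1, -1.88 for Cd74 and -1.20 for H2-DMb1. It was 0.07 for H2-DMa, 0.23 for H2-Oa and 1.05 for H2-Ob. These values use all 4 arrays and have no test.

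**Figure D3:**
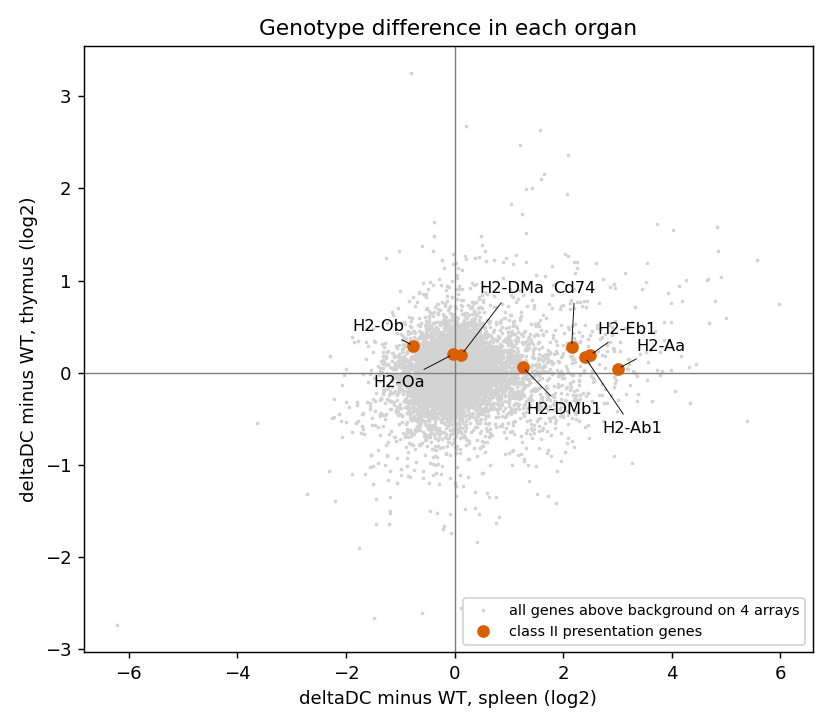
Genotype difference (log2, deltaDC minus WT) in the spleen on the horizontal axis and in the thymus on the vertical axis, for 12286 genes above background on all 4 arrays (grey) and the 8 class II genes among them (orange). Of the 8 orange points 5 lie right of 1 and near 0 on the vertical axis, and H2-Ob lies left of 0 at -0.76 and above 0 at 0.29.

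The one test the design allows is an additive fit of genotype and organ with limma, made on 13494 genes. Its residual is the departure from additivity, with 1 degree of freedom, and a dim WT spleen array enters the genotype and organ effects as well as the residual. No member passed an adjusted p of 0.05 for genotype or organ, and of all genes 0 (0%) passed for genotype and 64 (0.474%) for organ, a count that depended on the processing. At an unadjusted p under 0.05 there were 589 genes for genotype and 2727 for organ. H2-Aa had a genotype effect of 1.53 log2 units with a standard error of 0.89 and an adjusted p of 0.81 by limma; its differences were 3.01 in the spleen and 0.04 in the thymus, the latter within its spot error of 0.10. H2-Oa had an organ effect of 1.10 with a standard error of 0.15, an unadjusted p of 0.0064 and an adjusted p of 0.13 by limma, and was higher on the thymus array in both genotypes. H2-Eb2 had an organ effect of 2.56 and an adjusted p of 0.23 by limma, and its dim WT spleen value is in that fit.

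Among the other 12278 genes above background on all 4 arrays, the 10 nearest to the mean profile of H2-Aa, H2-Ab1, H2-Eb1 and Cd74 were Ifi211, Smtn, Ctla2b, Ccl4, Glis2, Mxd3, Perp, Ctla2a, H3c7 and Myl6b. The measure was the Euclidean distance between log2 profiles over the 4 arrays, each centred on its own mean, and it ran from 0.26 to 0.36 log2 units. H2-DMb1, at 0.97, had 151 other genes nearer to that profile than itself, H2-Oa 1408, H2-DMa 2388 and H2-Ob 10381. Ctla2a, which encodes a cysteine protease inhibitor, had signals of 879 (WT) and 4331 (deltaDC) in the spleen, and 5189 (WT) and 4860 (deltaDC) in the thymus. The chemokine gene Ccl4 had 79.3, 357, 387 and 429. Ifi211 and Myl6b differed between the thymus genotypes by 0.52 and 0.47, more than the 0.04 to 0.28 of the 4 class II genes. The choice of these genes fixes their likeness, which has no test.

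The machinery that prepares peptides for class II gave a mixed picture. Of 17 accessory and regulator genes measured on both spleen arrays, 4 were 2-fold or more higher in deltaDC and 0 lower, with a list median of 0.10 against -0.0047 over all genes. They were Ctsh, an endosomal protease, at 2.78, Marchf8, a ubiquitin ligase, at 1.97, the protease Lgmn at 1.43 and Ifi30, which reduces disulphide bonds in antigens, at 1.12. Ctsh had signals of 119 for WT spleen, 817 for deltaDC spleen, 754 for WT thymus and 1010 for deltaDC thymus, with WT spleen standing apart as for H2-Aa. Lgmn was highest on deltaDC spleen, at 4012, against 1490 in the WT spleen and 1286 and 1132 in the WT and deltaDC thymus. Ctss, the protease that trims the invariant chain in B and dendritic cells, differed by -0.04. In the thymus 0 of 18 differed 2-fold between genotypes, with a median of 0.05.

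Ctsl, the protease of that step in thymic epithelium, was brighter on the thymus arrays, with 1732 (WT) and 2723 (deltaDC) against 642 and 749 in the spleen. On the WT pair of arrays 3 of 17 genes of this list were at least 2-fold higher in the thymus, Ctsh at 2.66, Ctsl at 1.43 and Marchf8 at 1.30, and H2-DMb2 was at least 2.40-fold higher by its bound (list median 0.02, all genes -0.08). On the deltaDC pair 2 of 18 were higher, Ctsl at 1.86 and H2-DMb2 at 1.19, and Lgmn was lower at -1.82 (list median -0.15, all genes -0.02).

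The factors that bind the X and Y boxes lay within 2-fold in every comparison. In the spleen Rfx5 differed between genotypes by -0.13, Rfxank by -0.04, Rfxap by 0.02, Nfya by -0.22, Nfyb by 0.08, Nfyc by -0.15 and Creb1 by 0.10. The largest organ difference among them was that of Rfxap in WT mice, at -0.86.

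Interferon-gamma is the main inducer of Ciita outside antigen-presenting cells. Of 17 genes of its pathway and of Ciita control measured on both spleen arrays, 3 were 2-fold or more higher in deltaDC and 0 lower (list median -0.04). They were Ifng itself at 1.87, Prdm1, a repressor of Ciita, at 1.82, and the chemokine Cxcl10 at 1.69. Ifng had signals of 869 and 3169 in the WT and deltaDC spleen and 433 and 162 in the WT and deltaDC thymus, highest in the deltaDC spleen and lowest in the deltaDC thymus. Other genes that interferon-gamma induces, Socs1 (-0.63), Irf1 (-0.12) and Gbp2 (0.31), lay within 2-fold. In the thymus Ifng, at -1.42, was 1 of 18 that differed 2-fold between genotypes (list median 0.12).

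Between organs, Iigp1 (-1.12) and Ifng (433 against 869) were lower in the WT thymus, 2 of 17 with 0 higher (median -0.38), and Ifng (-4.29) and Prdm1 (-2.02) in the deltaDC thymus, 2 of 17 with 0 higher (median -0.22). Spi1, which drives macrophage and dendritic cell genes, was not well above background on either spleen array and had 29.1 on WT thymus and 36.5 on deltaDC thymus. It was at least 2.43-fold higher in the deltaDC thymus by its bound, while the bound in WT was 1.49-fold. Pax5, the B cell factor, was not well above background on any array.

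Genes that lie among or beside the class II genes on chromosome 17 but serve other functions showed no 2-fold difference. Of 7 such genes 0 differed 2-fold in any comparison by measurement or bound. Btnl2 was not well above background on either thymus array, so it had no genotype value there and only bounds between organs. In the spleen the peptide transporter genes Tap1 and Tap2 differed between genotypes by 0.29 and -0.09, and the proteasome genes Psmb8 and Psmb9 by 0.20 and -0.01 (list median -0.09). The medians were 0.11 for genotype in the thymus, -0.29 for organ in WT and -0.14 for organ in deltaDC mice.

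Markers of the cells that make class II were read beside these genes, since such cells could be in the sort. The labels name negative selection for the spleen and a CD4+ CD25+ gate for both organs, and no gate against antigen-presenting cells. Of 14 B cell markers, 6 were well above background on WT spleen, 10 in the deltaDC spleen, 12 in the WT thymus and 13 in the deltaDC thymus. Their summed signals were 2455, 2354, 4099 and 8286. Ms4a1, a B cell surface protein gene, had 4.64 on WT spleen, not well above background, 21.8 in the deltaDC spleen, 269 in the WT thymus and 802 in the deltaDC thymus. Cd79a, a chain of the B cell receptor, had 43.7, 33.7, 157 and 490 in the same order. In the spleen 0 of 6 measured B cell markers were 2-fold or more higher in deltaDC, 1, Bank1, was lower at -1.51, and Fcer2a was higher by a bound of 2.82-fold. In the thymus 6 of 12 were 2-fold or more higher in deltaDC and 0 lower, against 0.928% and 0.675% of 13040 genes. Cd79a at 1.64 and Ms4a1 at 1.58 were among them, and Cd79b at 0.42 and Cd22 at 0.39 were not. H2-Aa, H2-Ab1, H2-Eb1 and Cd74 differed there by 0.04 to 0.28.

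Most conventional dendritic cell markers were not well above background on WT spleen. Of 12, 2 were well above background there, 6 in the deltaDC spleen, 9 in the WT thymus and 7 in the deltaDC thymus, and the summed signals were 281, 967, 906 and 744. Batf3 made up the largest part of the deltaDC spleen sum, with 116, 536, 69.7 and 114 in that order. Of 2 markers measured on both spleen arrays 1, Batf3, was 2-fold or more higher in deltaDC, at 2.20. Batf3 was lower in the deltaDC thymus than in the deltaDC spleen, at -2.24. Itgax, which encodes CD11c, had 6.52 on WT spleen, not well above background, 93.8 in the deltaDC spleen, 212 in the WT thymus and 173 in the deltaDC thymus. Zbtb46, the lineage factor, had 17.0 (not well above background), 90.7, 74.6 and 65.7 in that order. Both were higher on deltaDC spleen than on WT spleen, Itgax at least 4.81-fold and Zbtb46 at least 4.65-fold. Xcr1, Clec9a and Ccl22 were not well above background on any array, and Cd209a was well above it on WT thymus alone, at 119. On the thymus arrays the defining markers Itgax, Zbtb46 and Flt3 differed between genotypes by -0.29, -0.18 and 0.73. Of 7 dendritic cell markers measured on both thymus arrays 0 were higher in deltaDC and 1, Ccl17, was lower at -1.93. Cd209a and Clec10a were lower there by bounds of 7.57-fold and 4.40-fold.

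Macrophage and monocyte markers had summed signals of 2353 (WT) and 4008 (deltaDC) in the spleen, and 1940 (WT) and 2449 (deltaDC) in the thymus, with 11, 12, 10 and 11 of 13 well above background. In the spleen 4 of 11 measured were 2-fold or more higher in deltaDC, Adgre1 at 1.27, C1qb at 1.23, C1qa at 1.21 and C1qc at 1.07, and Lyz2 was higher by a bound of 3.43 log2 units. Csf1r, the receptor that defines the lineage, had 945, 1502, 555 and 732, with both thymus arrays under both spleen arrays. Lyz2, the lysozyme gene of these cells, had 17.7 (not well above background), 210, 176 and 393, and was at least 9.01-fold higher on WT thymus than on WT spleen. Between the WT organs, of 8 markers measured on both arrays 1 was lower in the thymus and 0 higher, and by bounds 1 was higher and 2 lower. Of the thymic epithelial factors, Foxn1 and Aire were not well above background on any array, and Psmb11 was above it on deltaDC thymus alone, at 45.4. Krt8, a keratin gene, was not well above background on the spleen arrays and had 119 on WT thymus and 223 on deltaDC thymus, at least 6.11-fold and 14.8-fold higher than in the spleen of the same genotype. It had an organ effect of 4.83 with a standard error of 0.16 and an adjusted p of 0.047 by limma, higher in the thymus in both genotypes, and no other listed gene passed; no gene passed for organ in 5 of the 6 alternatives. Krt8 entered that fit through the thymus arrays alone, and its dim spleen values, 4.57 (WT) and 7.15 (deltaDC), are in it. The effect of 4.83 is therefore not a measured fold. Krt5 was higher in the thymus by bounds of 2.08-fold in WT and 2.22-fold in deltaDC mice, and Ccl25 by 2.14 log2 units in deltaDC mice. Epithelial markers summed to 849, 551, 1281 and 2121, with 3, 3, 5 and 6 of 8 detected.

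Markers of innate lymphoid and gamma-delta T cells, some of which carry class II, summed to 507 for WT spleen, 4094 for deltaDC spleen, 3219 for WT thymus and 3197 for deltaDC thymus. In the spleen 5 of 5 measured were 2-fold or more higher in deltaDC, led by Cd163l1 at 5.38 and Il1r1 at 3.72, and 2 more were so by a bound. The part of any of these cells in the class II signals was not tested. On the WT spleen array H2-Ab1 (1265), H2-Eb1 (1236) and Cd74 (1504) were well above background. Among the markers Csf1r and Adgre1 were too, while Ms4a1, Pax5, Itgax, Zbtb46 and Flt3 were not. Of the full lists, 6 of 14 B cell and 2 of 12 conventional dendritic cell markers were, among them Cd79b (1951) and Batf3 (116).

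**Figure D4:**
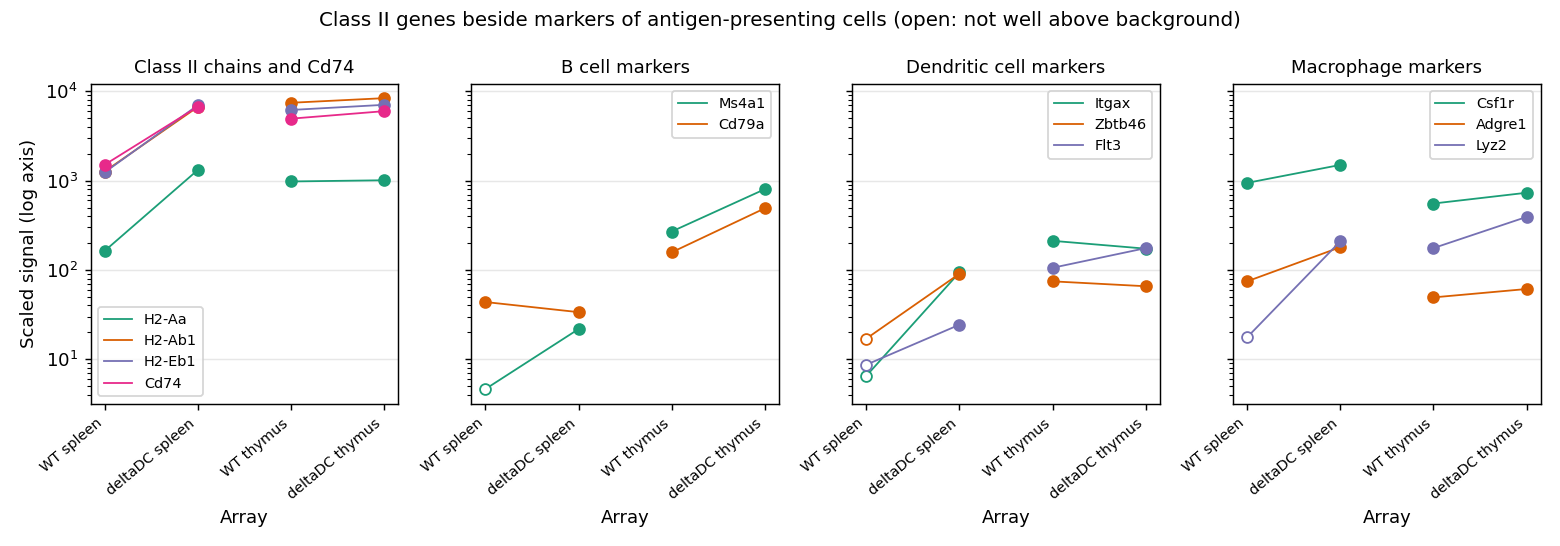
Scaled signal (log axis) of class II genes and of markers of B cells, dendritic cells and macrophages on the 4 arrays; lines join the genotypes within an organ, and open points are not well above background. The plotted B cell markers Ms4a1 (802 against 269) and Cd79a (490 against 157) are higher on deltaDC thymus than on WT thymus. H2-Aa reads 1011 and 980 on these arrays. Itgax, Zbtb46, Csf1r, Adgre1 and Lyz2 are higher on the deltaDC spleen array than on WT spleen, as are the 4 class II genes plotted.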

How the data were processed

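Spot intensity was deposited as written by Agilent Feature Extraction 10.7.3.1, per the file headers after background subtraction and detrending within each array, with flags of 0 or 1 in other columns. The authors' deposited matrix holds log2 values after background subtraction and quantile normalization, per its header; its tool and offset are not given in the sources used here. Its column medians were 4.10 to 4.15, and each column correlated best (r at least 0.996 across genes) with its own scanner array.

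Outlier-flagged spots (110 to 168 per array) were removed; 0 were saturated. Signals were put on the log2 scale, less each array's 75th percentile, and repeated spots averaged; 399 probes with repeated spots gave the spot error. Probes were named by RefSeq accession (27598) or symbol (3494) in a GRCm38.p6 table, used for names and gene order; 24589 stayed unnamed. The probe with the highest mean stood for a gene. A difference was called at 2-fold where both arrays were well above background. Where 1 was, the bound set its signal against the higher of the other array's lowest well-above-background signal and the gene's own dim signal. Genotype plus organ was fitted with limma 3.58.1 (R 4.3.3; lmFit, eBayes; Benjamini-Hochberg; two-sided) on genes above background on at least 2 arrays, and tested on simulated data.

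All members were named, listed genes where they differed 2-fold (the X and Y box factors, the region's neighbours and some markers were added after their values were seen), and the 10 genes nearest in profile. Members and lists were chosen with earlier results of these data known. Alternatives were quantile scaling, normexp (offset 50), the median over probes, other filters and the authors' matrix. Some listed genes are counted in their lists but not reported by name here.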

Additional observations from a re-analysis of the deposited data

Results flagged for a closer look

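H2-Ob, the beta chain of H2-DO, differed between genotypes in opposite directions in the organs, by -0.76 log2 units in the spleen and by 0.29 in the thymus, each larger than its spot error of 0.08. Its other bright probe gave -1.18 and 0.34. With 1 array per group the difference between the organs was not tested.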

How the results depend on the processing

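The counts of members at 2-fold, 5 between the spleen genotypes and 5 between the WT organs, were 4 to 6 and 4 to 7 under the 6 alternatives, and not always of the same members. H2-DMb1 was under 2-fold in the spleen with normexp (0.89) and with the median over probes (0.59), and between the WT organs with the median over probes (0.92), which takes in its dim probe. H2-Ob passed 2-fold as lower in the spleen with normexp (-1.11) and in the authors' matrix (-1.16). Between the thymus genotypes the count of 1 became 0 with normexp, in the authors' matrix and with the filter on all 4 arrays, which drops H2-Eb2, and 2 with no filter, which adds the dim Ciita. Between the deltaDC organs 2 became 1 with normexp and with the filter on all 4 arrays. Of 202 single-gene values under the alternatives 167 moved by no more than the spot error, 35 by more, and no called value changed sign. Part of the 167 could not move, since the filters leave a gene's value as it is. The median over probes also does so for a gene with 1 probe. No member was called by limma for genotype or organ under any alternative. Over all genes, normexp called 217 for organ, and the other 5 alternatives 0, against 64; with it 4.55% of genes differed 2-fold between the spleen genotypes against 8.42%, and without a filter 13.9%. No paired analysis was possible because the labels give no replicate numbers and each group has 1 array; the fit of genotype and organ already sets the organs against each other within the pool of 1 genotype. Replicate arrays, absent in every group, and signal over background for H2-Eb2 and Ciita are what limit these values.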

Other observations

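Costimulatory ligands, which antigen-presenting cells show beside class II, differed in mixed directions. Cd86 was lower on the deltaDC array in both organs, with 1646 (WT) and 558 (deltaDC) in the spleen and 1322 (WT) and 651 (deltaDC) in the thymus, log2 differences of -1.56 and -1.02. Cd80 was higher on deltaDC spleen by 1.34 and differed by 0.03 in the thymus. Cd40, which B cells and dendritic cells carry, had signals of 8.23 (WT, not well above background) and 46.2 (deltaDC) in the spleen and of 159 (WT) and 146 (deltaDC) in the thymus, so it was at least 2.37-fold higher on deltaDC spleen and at least 8.17-fold higher on WT thymus than on WT spleen. Of 5 ligands measured on both spleen arrays 1 was higher and 1 lower.

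The probes of Siglech, a marker of plasmacytoid dendritic cells, disagreed. The brightest read 69980 (WT) and 45104 (deltaDC) in the spleen and 49332 (WT) and 43105 (deltaDC) in the thymus. Another read 4.61, 6.31, 68.7 and 33.5, well above background on the thymus arrays alone, and the last was not well above background on any array. The bright probe sets the summed signal of the 6 plasmacytoid markers, which was 74659, 49876, 54321 and 52505. The cause was not tested.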
